A study of Mus musculus with 4 samples.

Results

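The genes described here are 9 signals that guide T cells and microglia: 5 chemokines (Cxcl12, Cxcl14, Cxcl10, Cxcl16 and Cx3cl1), 2 adhesion ligands (Vcam1 and Icam1) and 2 atypical chemokine receptors (Ackr1 and Ackr3). They were chosen by gene symbol, all 9 were found among the 19388 genes with values, and 8 averaged 1 FPKM or more over the libraries and so entered the test. FPKM counts sequenced fragments relative to the length of a transcript and to all mapped fragments of its library. The libraries came from hippocampus of C57BL/6 mice, an inbred strain, and held polyadenylated RNA. Of the 4 libraries, 2 came from control mice that received phosphate-buffered saline (PBS). The other 2 came from mice that received sodium L-ascorbate, a vitamin C salt, and the series gives a treatment time of 30 days. Its title speaks of middle-aged mice, CD8 T cells and cognition, and the labels give no age in weeks, dose, route or sex. They do not say whether the 2 libraries of a group are separate animals, so a p-value here measures only the spread between these libraries, which may be technical. The labels number the libraries 1 and 2 in each group without giving the number a meaning. Summed marker genes of choroid plexus, meninges, border macrophages and endothelial and mural cells were lower in both ascorbate libraries than in both PBS libraries. The low summed markers of T cells were higher in both, while those of venular endothelium overlapped. Summed markers of thalamus separated library number 1 from number 2. The values of these lists are given after the members.

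Chemokines are small secreted or membrane-tethered proteins that draw leukocytes along a gradient through receptors on those cells. At the wall of a brain vessel, a leukocyte binds Vcam1 and Icam1 on the endothelium through its integrins before it crosses. Atypical receptors bind chemokines without the usual signal and take them up, carry them across the endothelium or shape their gradient. In the healthy brain neurons are a main source of Cx3cl1, which signals to Cx3cr1 on microglia, while few T cells are present.

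RefSeq promoter windows of GRCm38.p6 were found for 7 of the 9 genes, all but Vcam1 and Cxcl16. The 250 bases before the start were searched on both strands for the kB consensus bound by NF-kB and for GAAANNGAAA, the core of the interferon-stimulated response element (ISRE). The Cxcl10 and Cxcl14 windows are shown because they were the ones with a match. In Cxcl10 (chr5:92348890-92349139, minus strand) the capitals mark, in order, an ISRE core starting 213 bases before the start and kB matches at 159 and 103 bases. In Cxcl14 (chr13:56296552-56296801, minus strand) they mark an ISRE core at 172 bases. This window lies wholly inside the span of the Cxcl14 gene (56288643 to 56296811). It therefore precedes a start within the gene and is not upstream of the whole gene.
Cxcl10: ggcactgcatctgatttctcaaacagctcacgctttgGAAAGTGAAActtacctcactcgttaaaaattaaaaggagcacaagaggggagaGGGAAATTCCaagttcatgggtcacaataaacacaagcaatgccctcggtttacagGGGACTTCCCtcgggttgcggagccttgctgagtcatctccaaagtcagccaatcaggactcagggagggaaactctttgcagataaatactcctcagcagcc
Cxcl14: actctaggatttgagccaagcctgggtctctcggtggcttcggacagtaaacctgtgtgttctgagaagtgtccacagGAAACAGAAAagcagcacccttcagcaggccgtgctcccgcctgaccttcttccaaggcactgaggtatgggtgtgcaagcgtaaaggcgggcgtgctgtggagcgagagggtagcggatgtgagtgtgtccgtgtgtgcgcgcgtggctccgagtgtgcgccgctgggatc
The matches do not overlap. Of all 32851 promoter windows, 3.9% held a kB match and 2.98% an ISRE core. The other 5 windows held neither, which says only that these letters are not in those bases.

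Both ascorbate libraries were below both PBS libraries for 6 of the 9 genes (Cxcl12, Cxcl10, Cxcl16, Vcam1, Icam1 and Ackr1) and above them for 1 (Cx3cl1), while Cxcl14 and Ackr3 overlapped. Among all tested genes the shares were 14.4% lower and 8.65% higher. In limma-trend 0 of 13372 genes (0%) reached an adjusted p under 0.05, thus 0 of the 8 tested here, and an unadjusted p under 0.05 was reached by 377 of all genes and by 2 of the 8, Vcam1 and Cxcl16. The median log2 difference of the 8 was -0.50, against -0.018 over all tested genes. Of all tested genes 54.2% had a negative log2 difference, the share to set beside the counts of signs below. The members were picked with earlier results of these data known, so these counts describe them and do not support a direction. An exact 2-sided permutation test of 2 against 2 libraries cannot give a p below 0.333.

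**Figure D1:**
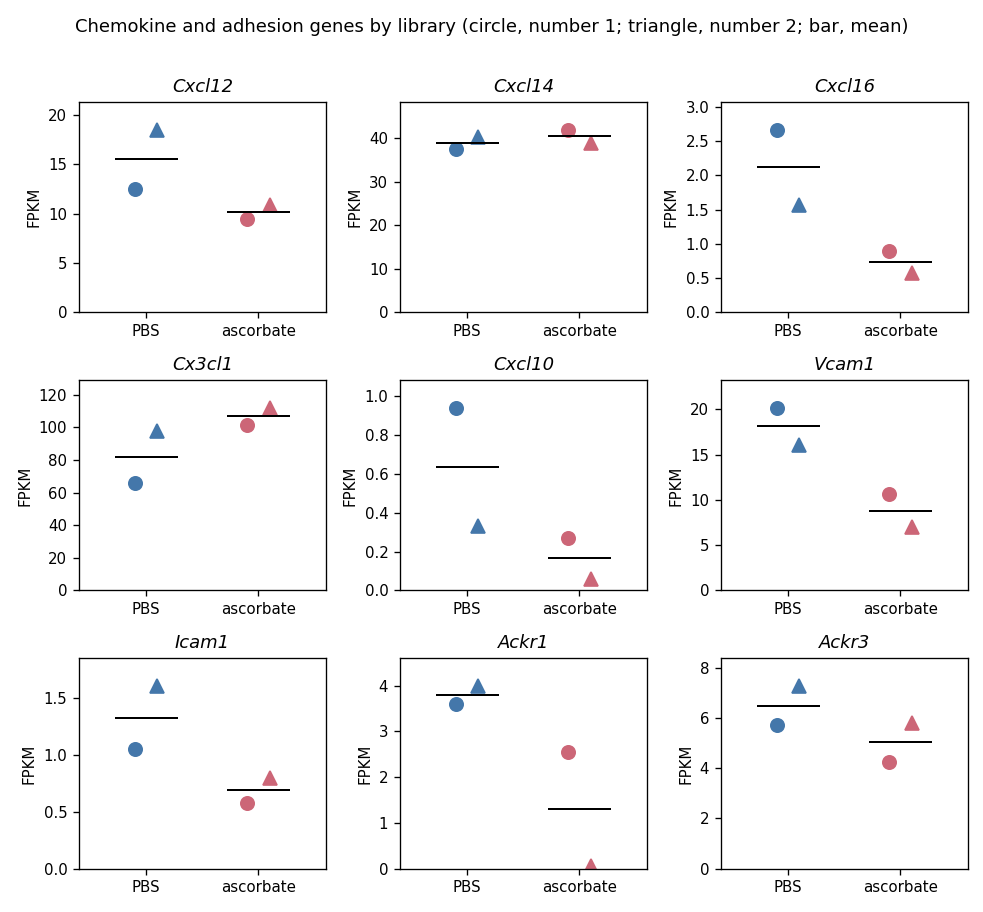
FPKM of the 9 genes (vertical axis of each panel, from 0) in PBS and ascorbate libraries, with circles for libraries numbered 1, triangles for those numbered 2 and a bar at the group mean. Both ascorbate points lie below both PBS points in the Cxcl12, Cxcl16, Cxcl10, Vcam1, Icam1 and Ackr1 panels and above them in the Cx3cl1 panel.

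Among the secreted chemokines, Cxcl12 (gene ID 20315, chromosome 6, 117168535 to 117181368, GRCm38.p6) is the ligand of Cxcr4 and Ackr3 and is made by stromal, vascular and some neural cells. It was 12.53 and 18.50 FPKM in PBS libraries 1 and 2 and 9.44 and 10.83 FPKM in ascorbate libraries 1 and 2. Both ascorbate values were below both PBS values, but the PBS libraries lay further apart than the gap between the groups. The means were 15.5 ± 4.22 and 10.1 ± 0.983 FPKM (SD, n = 2 each), a 1.53-fold difference, with a log2 difference of -0.55 (SE 0.23, limma-trend, unadjusted p = 0.0703, adjusted p = 1). It was -0.37 between the libraries numbered 1, -0.72 between those numbered 2 and -0.28 without PBS library 2. Every log2 difference is the ascorbate mean less the PBS mean of log2(FPKM + 1), which makes those of low genes smaller than the fold of the FPKM.

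Cxcl14 (gene ID 57266, chromosome 13, 56288643 to 56296811) is a conserved chemokine that hippocampal interneurons, among other cells, express. It stood at 37.44 and 40.38 FPKM with PBS against 42.00 and 38.95 FPKM with ascorbate. The groups overlapped, and all 4 values lay close together. The log2 difference was 0.06 (SE 0.14), with 0.16 and -0.05 within numbers 1 and 2. The summed interneuron markers overlapped as well, at 646.9 and 775.8 FPKM with PBS against 882.9 and 679.3 FPKM with ascorbate.

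Cxcl10 (gene ID 15945, chromosome 5, 92346638 to 92348889), the interferon-induced ligand of Cxcr3 on activated T cells, was the lowest of the 9 and was not tested. It was 0.94 and 0.33 FPKM with PBS against 0.27 and 0.06 FPKM with ascorbate. PBS library 1 stood above the other three, and ascorbate library 2 was near the smallest steps of the data, since the most frequent value above 0 in olfactory and vomeronasal receptor genes was 0.06 or 0.07 FPKM in each library. The ratio of the means was 3.85-fold, and it was 2.0 without PBS library 1, 2.35 without ascorbate library 2 and 10.6 without ascorbate library 1. Without the filter on low values its log2 difference was -0.47 (SE 0.22, limma-trend, adjusted p = 1). Cxcl10 lies within the span of Art3, so reads of the pair may not be told apart. Art3 was 2.80 and 1.36 FPKM with PBS against 2.31 and 0.96 FPKM with ascorbate, and its groups overlapped.

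Of the membrane-tethered chemokines, Cx3cl1 (fractalkine, gene ID 20312, chromosome 8, 94772180 to 94782427) was the most abundant of the 9 genes and the one that lay higher with ascorbate. It was 65.83 and 97.51 FPKM with PBS against 101.37 and 112.06 FPKM with ascorbate. PBS library 1 stood apart from the other three, and PBS library 2 was close to ascorbate library 1. The means were 81.7 ± 22.4 and 107 ± 7.56 FPKM (SD, n = 2 each), a 1.31-fold difference with a log2 difference of 0.41 (SE 0.25, limma-trend, adjusted p = 1). Without PBS library 1 the fold was 1.09 and the log2 difference 0.13. Within numbers 1 and 2 the log2 differences were 0.62 and 0.20.

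Its receptor Cx3cr1, a microglial gene, was 8.38 and 11.76 FPKM with PBS against 8.41 and 10.76 FPKM with ascorbate, with groups that overlapped. The ratio of Cx3cl1 to Cx3cr1 within a library does not depend on how the library is scaled. It was 7.86 and 8.29 with PBS and 12.1 and 10.4 with ascorbate, so both ascorbate libraries were above both PBS libraries. The ratio was chosen after the values were seen and was not tested.

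Cxcl16 (gene ID 66102, chromosome 11, 70454389 to 70459984) binds Cxcr6 on T cells and also takes up oxidised lipoprotein on macrophages. It was 2.67 and 1.57 FPKM with PBS against 0.90 and 0.58 FPKM with ascorbate. The groups did not overlap, although PBS library 2 was closer to the ascorbate libraries than to PBS library 1. The means of 2.12 ± 0.778 and 0.74 ± 0.226 FPKM (SD, n = 2 each) differ 2.86-fold, and the log2 difference was -0.83 (SE 0.27, limma-trend, unadjusted p = 0.0354, adjusted p = 1). Within numbers 1 and 2 it was -0.95 and -0.70. Cxcl16 overlaps Zmynd15, which stayed between 0.20 and 0.33 FPKM in every library.

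Of the adhesion ligands, Vcam1 (gene ID 22329, chromosome 3, 116110020 to 116129688), the endothelial and stromal ligand of the integrin made of Itga4 and Itgb1, had the smallest p of the 8 tested genes. It was 20.17 and 16.08 FPKM with PBS against 10.59 and 7.04 FPKM with ascorbate. The gap between the groups was wider than the spread within either of them. The means were 18.1 ± 2.89 and 8.81 ± 2.51 FPKM (SD, n = 2 each), a 2.06-fold difference that ran from 1.71 without ascorbate library 2 to 2.57 without ascorbate library 1. The log2 difference was -0.98 (SE 0.24, limma-trend, unadjusted p = 0.0138, adjusted p = 0.966), with -0.87 and -1.09 within numbers 1 and 2.

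Icam1 (gene ID 15894, chromosome 9, 21015940 to 21028814), the ligand of the beta-2 integrins of leukocytes and microglia, was scarce. It was 1.05 and 1.61 FPKM with PBS against 0.58 and 0.80 FPKM with ascorbate. The groups did not overlap, but PBS library 1 was closer to ascorbate library 2 than to PBS library 2. The log2 difference was -0.46 (SE 0.24, limma-trend, adjusted p = 1), with -0.38 and -0.54 within the numbers and -0.28 without PBS library 2. Icam1 and Cxcl16 had ascorbate means under 1 FPKM and were tested through their PBS libraries, so they could enter the test only by being higher there.

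Ackr1 (gene ID 13349, chromosome 1, 173331886 to 173333503), the receptor of venular endothelium and red cells that binds many chemokines, varied most between the ascorbate libraries. It was 3.59 and 4.00 FPKM with PBS against 2.54 and 0.06 FPKM with ascorbate. The PBS values lay close together, while ascorbate library 2 was near the smallest steps of the data. The means of 3.79 ± 0.29 and 1.30 ± 1.75 FPKM (SD, n = 2 each) differ 2.92-fold, but the fold was 1.49 without ascorbate library 2 and 63.2 without ascorbate library 1. The log2 difference was -1.31 (SE 0.62, limma-trend, adjusted p = 1), the largest and the least certain of the 8, and was -0.37 and -2.24 within numbers 1 and 2. Ackr1 lies within the span of Cadm3 apart from its end, and a transcript of each shares 287 identical bases. Cadm3 was 47.11 and 59.08 FPKM with PBS against 59.65 and 68.12 FPKM with ascorbate. The 11 ependymal and cilia markers, 0 of them at 0, also had their lowest sum in ascorbate library 2, with 117.1 and 62.4 FPKM against 111.2 and 11.6 FPKM. All 11 had a negative log2 difference (median -0.95), against 54.2% of all tested genes. Their median was -0.20 within number 1 and -1.69 within number 2. Of the 11, 2 were lower and 0 higher without overlap, where all tested genes gave 14.4% and 8.65%. The 6 erythrocyte markers summed to 115.6 and 18.3 FPKM against 92.5 and 21.7 FPKM, with 1 of the 6 listed at 0 in ascorbate library 1. Their sum followed the library number, and Hbb-bs and Hba-a2 were the most abundant of them. Gene by gene, 1 of the 4 tested and both under 1 FPKM, Alas2 and Slc4a1, were lower without overlap, and 0 were higher. Genes under 1 FPKM gave 17.7% lower and 6.43% higher. The part of either list in the Ackr1 value was not tested.

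Ackr3 (gene ID 12778, chromosome 1, 90203980 to 90215724) removes Cxcl12 from the surroundings of the cell. It was 5.70 and 7.28 FPKM with PBS against 4.26 and 5.79 FPKM with ascorbate. Ascorbate library 2 was just above PBS library 1, so the groups overlapped. The log2 difference was -0.32 (SE 0.21, limma-trend, adjusted p = 1), with -0.35 and -0.29 within the numbers. It was -0.13 without ascorbate library 1 and -0.16 without PBS library 2. The ratio of Cxcl12 to Ackr3 was 2.2 and 2.54 with PBS and 2.22 and 1.87 with ascorbate, which also overlap.

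**Figure D2:**
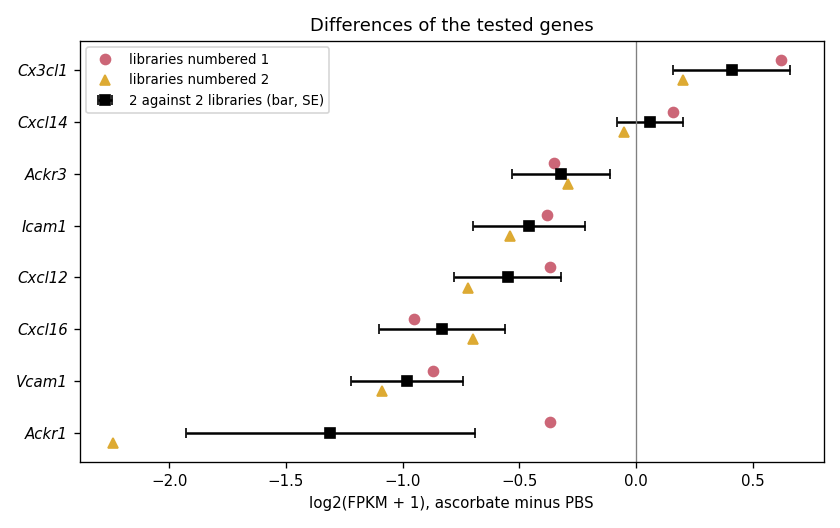
Log2 differences of the 8 tested genes, ascorbate less PBS in log2(FPKM + 1) (horizontal axis), with squares and SE bars for 2 against 2 libraries, circles for the libraries numbered 1 and triangles for those numbered 2. Ackr1 has its circle at -0.37 and its triangle at -2.24, and Cxcl14 has them on either side of 0.

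By mean FPKM, which is scaled by length, the order with PBS was Cx3cl1, Cxcl14, Vcam1, Cxcl12, Ackr3, Ackr1, Cxcl16, Icam1 and Cxcl10. The values of Vcam1 and Cxcl12 overlapped, as did those of Cxcl16 and Icam1, and the other neighbours lay apart. With ascorbate, Cxcl12 came before Vcam1 and their values again overlapped. There, Ackr1, Cxcl16 and Icam1 overlapped from one neighbour to the next.

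The other 35 chemokine ligands listed were mostly close to silent. Of these, 30 had values and 4 averaged 1 FPKM or more. None of the 4 passed (limma-trend, 0 at an unadjusted p under 0.05), 3 had a negative and 1 a positive log2 difference, and their median was -0.10. Ccl27a, an epithelial chemokine, was the most abundant at 39.69 and 45.92 FPKM with PBS against 42.16 and 40.95 FPKM with ascorbate, but near-identical copies such as Ccl27b (99.3% identity) make its value uncertain. Ccl28, a mucosal chemokine, was 0.91 and 0.75 FPKM with PBS against 1.35 and 1.94 FPKM with ascorbate (log2 difference 0.52, SE 0.23, adjusted p = 1). Both ascorbate libraries were above both PBS libraries for Ccl28 and below them for Ccl25, and Ccl6 and Ccl27a overlapped.

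Of the 26 ligands with a mean under 1 FPKM, 2 were listed at 0 in every library, 10 had both ascorbate libraries below both PBS libraries and 0 above. Among all 5144 genes under this mean and above 0 in some library, the shares were 17.7% lower and 6.43% higher. These 10 include the monocyte chemokines Ccl2, Ccl7 and Ccl8. Ccl7 was 0.24 and 0.69 FPKM with PBS and was listed at 0 in both ascorbate libraries. Ccl2 was 0.56 and 0.23 FPKM with PBS against 0.22 and 0.00 FPKM with ascorbate, and Cxcl9, another ligand of Cxcr3, reached no more than 0.06 FPKM. At such levels a few fragments set each value, and no counting error can be given.

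Of 21 further chemokine receptors, 5 were tested, 0 passed and 1 had an unadjusted p under 0.05 (limma-trend). All 5 had a negative log2 difference, against 54.2% of all tested genes, with a median of -0.14. Ackr4, an atypical receptor that removes Ccl19, Ccl21 and Ccl25, was 2.06 and 1.71 FPKM with PBS against 0.14 and 0.20 FPKM with ascorbate. The groups did not overlap, with a log2 difference of -1.30 (SE 0.22, adjusted p = 0.456) and -1.42 and -1.18 within the numbers. Ackr4 lies within the span of Acad11, which was 11.02 and 7.99 FPKM with PBS against 9.20 and 7.85 FPKM with ascorbate, so the value of Ackr4 is uncertain. Its ascorbate mean was 0.17 FPKM, so it entered the test through its PBS libraries.

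Cxcr4, the signalling receptor of Cxcl12, was 1.42 and 0.91 FPKM with PBS against 1.63 and 0.48 FPKM with ascorbate and overlapped. The neutrophil receptor Cxcr2 overlapped too, at 3.38 and 2.62 against 2.44 and 2.81 FPKM. Cxcr3 and Cxcr6, the T cell receptors of Cxcl10 and Cxcl16, reached no more than 0.07 and 0.09 FPKM.

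Of 24 further adhesion molecules of vessels, leukocytes and other cells, 16 were tested, 0 passed and 1 had an unadjusted p under 0.05 (limma-trend). The most abundant of them were Icam5 and Cd200. Their median log2 difference was -0.06, with 10 negative and 6 positive. F11r, a junctional adhesion molecule of epithelium and endothelium, was 6.44 and 6.54 FPKM with PBS against 3.83 and 2.05 FPKM with ascorbate (log2 difference -0.96, SE 0.27, adjusted p = 1). Its PBS values were nearly equal, and both ascorbate values were lower. Ninj1, an adhesion protein of nerve and myeloid cells, had a log2 difference of -0.43 (SE 0.28). The endothelial genes Emcn and Esam had log2 differences of -0.29 each.

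Of 12 integrin genes listed, among them but not only the chains that bind Vcam1 and Icam1, 6 were tested. Of these 0 passed (limma-trend, 0 at an unadjusted p under 0.05, median log2 difference -0.10). Itga4 was 3.32 and 6.63 FPKM with PBS against 2.74 and 7.07 FPKM with ascorbate, so it followed the library number and not the group, and it overlaps Cerkl in part, so its value is uncertain. Itgb1 was 22.83 and 19.79 against 19.00 and 14.19 FPKM (log2 difference -0.35, SE 0.20, adjusted p = 1). Itgam and Itgb2, the chains of the microglial receptor of Icam1, had log2 differences of 0.03 and -0.08, and Itgal, the T cell chain, reached no more than 0.18 FPKM.

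Of 11 proteases and regulators that release or cut these ligands, 8 were tested, 0 passed and 1 had an unadjusted p under 0.05 (limma-trend, median -0.14). Adam10 and Adam17, the proteases that shed Cx3cl1 and Cxcl16, had log2 differences of -0.07 (SE 0.15) and -0.15 (SE 0.17) with overlapping groups. Mmp2, a matrix protease that can cut Cxcl12, was 1.95 and 2.30 FPKM with PBS against 1.02 and 0.77 FPKM with ascorbate (log2 difference -0.72, SE 0.21, adjusted p = 1). Its ascorbate mean was 0.895 FPKM, so it too was tested through its PBS libraries. Timp3, an inhibitor of such proteases, was 47.79 and 41.63 against 39.94 and 18.89 FPKM, but its gene lies within Syn3 and its value is uncertain. Adam17 overlaps Iah1 in part, so its value is uncertain as well.

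The NF-kB and interferon-gamma pathways induce Cxcl10, Vcam1 and Icam1 in many cells. Of 25 of their genes, 16 were tested, 0 passed and 0 had an unadjusted p under 0.05 (limma-trend). Their log2 differences were 12 negative and 4 positive with a median of -0.16, where 54.2% of all tested genes were negative. For 6 of the 16 both ascorbate libraries were below both PBS libraries, and for 0 above, where all tested genes gave 14.4% and 8.65%. The TNF receptor Tnfrsf1a was 5.13 and 4.65 against 4.04 and 2.69 FPKM, and the transcription factor Irf1 was 5.02 and 4.82 against 3.24 and 3.83 FPKM (log2 differences -0.45 and -0.39, adjusted p = 1 each). The interferon-gamma receptor chain Ifngr1 and the factor Irf8 had log2 differences of -0.30 and -0.26.

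**Figure D3:**
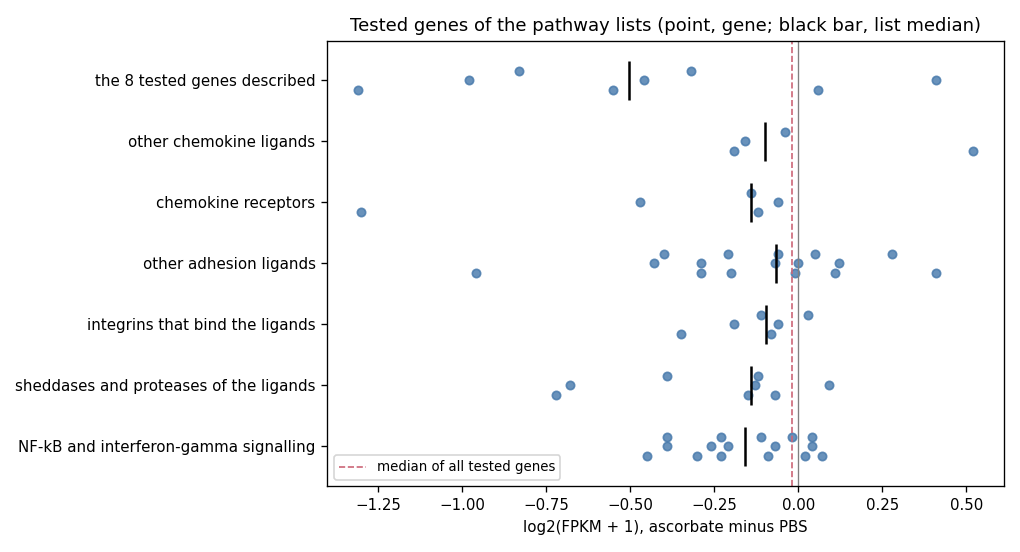
Log2 differences of the 8 tested genes described and of the tested genes of the 6 pathway lists, ascorbate less PBS in log2(FPKM + 1) (horizontal axis), with a point per gene, a black bar at the list median and a dashed line at -0.018, the median of all tested genes. The bar of the 8 genes is at -0.50 and those of the 6 pathway lists are between -0.16 and -0.06, while tissue marker lists, which are not drawn, had medians as low as -3.53.

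Transcripts of tissues that border the hippocampus and of vessels moved with the groups in the same libraries. The 24 choroid plexus markers, genes of the ventricular epithelium that makes cerebrospinal fluid, summed to 9869.9 and 9137.4 FPKM with PBS and to 260.5 and 68.6 FPKM with ascorbate. The 20 meningeal fibroblast markers summed to 1704.4 and 1374.2 against 524.5 and 230.5 FPKM. The 21 endothelial and mural markers summed to 174.4 and 194.3 against 90.3 and 101.8 FPKM, and the 10 border macrophage markers to 13.4 and 9.63 against 7.39 and 5.95 FPKM. In each of these 4 lists both ascorbate sums were below both PBS sums. Gene by gene, this held for 23 of 24, 20 of 20, 15 of 21 and 7 of 10 markers in that order. The reverse held for 1 endothelial or mural marker and 0 of the others. Among all tested genes the shares were 14.4% lower and 8.65% higher, and among those under 1 FPKM 17.7% and 6.43%. In the same order 23, 16, 18 and 3 markers were tested, with median log2 differences of -3.53, -1.49, -0.33 and -0.58. In ascorbate library 2, Otx2, Tmem72 and Wfdc2 were listed at 0 in the choroid plexus list and Cd209f in the border macrophage list, and 0 markers of these 4 lists were at 0 in the other libraries. The part of these tissues in the values of Vcam1, Cxcl12, Cxcl16, Icam1, Ackr1 and Cxcl10 was not tested. In bulk tissue, fewer cells of a type and less RNA per cell cannot be told apart.

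The 18 microglia markers overlapped between groups, at 410.0 and 353.9 FPKM with PBS against 364.6 and 329.1 FPKM with ascorbate, with a median log2 difference of -0.08. Of the 18, 4 were lower and 1 higher without overlap, where all tested genes gave 14.4% and 8.65%. The sums of the 8 venular endothelial markers overlapped as well, at 19.3 and 22.2 against 20.1 and 15.3 FPKM. Nr2f2 and Il1r1 were the most abundant of them. All 4 tested venular markers had a negative log2 difference (median -0.21), with 1 lower and 0 higher without overlap. Of the 4 under 1 FPKM, 2 were lower and 0 higher, where all genes under this mean gave 17.7% and 6.43%. Pyramidal and granule neuron markers of the hippocampus followed the library number, at 167.2 and 386.1 FPKM with PBS against 215.4 and 448.4 FPKM with ascorbate. Thalamic and habenular markers ran the other way, at 469.6 and 68.0 against 604.0 and 55.5 FPKM. PBS library 1, which had the lowest Cx3cl1, also had the lowest sum of these hippocampal neuron markers, and the part of this in the Cx3cl1 value was not tested.

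T cells, which these signals guide, left little transcript in any library. Of 19 T cell markers with values, 1 averaged 1 FPKM or more. This was Zap70, a T cell receptor kinase, at 1.91 and 2.10 FPKM with PBS against 3.64 and 3.63 FPKM with ascorbate (log2 difference 0.63, SE 0.16, limma-trend, unadjusted p = 0.0165, adjusted p = 1). The defining genes did not follow it. Cd3e was 0.00 and 0.04 FPKM with PBS against 0.15 and 0.00 FPKM with ascorbate. Cd8a was 0.42 and 0.18 against 0.33 and 0.37 FPKM, and Cd8b1 was 0.00 and 0.08 in each group. The list summed to 5.14 and 4.20 FPKM with PBS against 6.19 and 6.31 FPKM with ascorbate. Both ascorbate sums were thus above both PBS sums, and Zap70 was the most abundant gene in them. Of the list, 4 and 2 genes were at 0 with PBS and 4 and 8 with ascorbate. Of the 18 markers under 1 FPKM, 2 were lower and 3 higher without overlap, where all genes under this mean gave 17.7% and 6.43%.

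**Figure D4:**
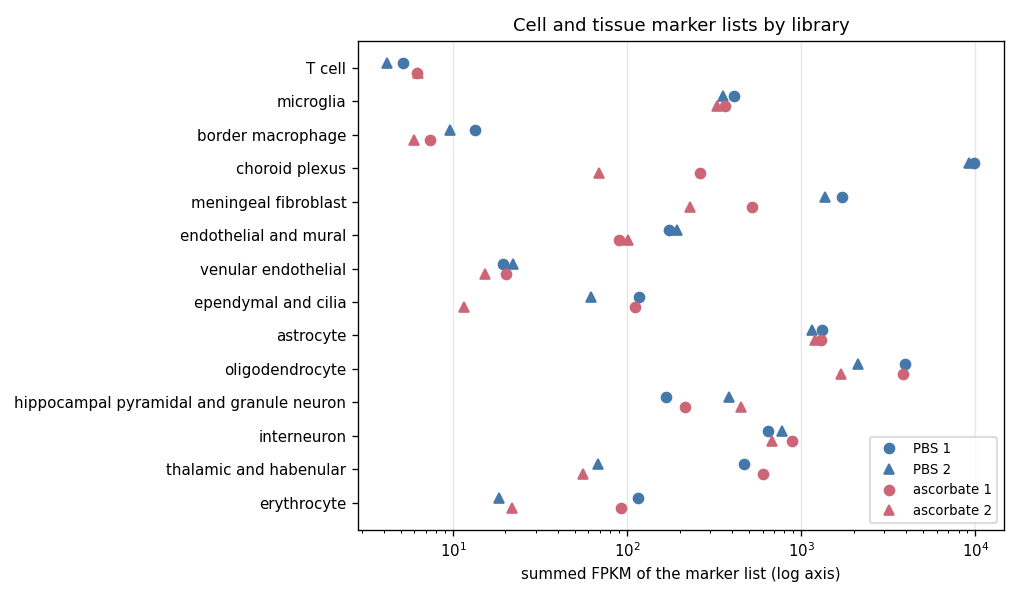
Summed FPKM of each cell or tissue marker list (horizontal log axis) in the 4 libraries, with blue for PBS, red for ascorbate, circles for number 1 and triangles for number 2. The choroid plexus, meningeal, endothelial and mural, and border macrophage lists are lower in both ascorbate libraries than in both PBS libraries. The T cell list is higher in both, and the sums of the venular endothelial list overlap. The thalamic list separates the numbers, with sums of 469.6 and 604.0 FPKM for number 1 and 68.0 and 55.5 FPKM for number 2.

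The listed genes whose profile lay nearest to each tested member were found among 212 tested genes of the other lists. Likeness was the distance over the 4 libraries between log2(FPKM + 1) values after subtracting each gene's mean, and it is a description over 4 points that share their libraries. Vcam1 was nearest to Lum (0.19) and Crabp2 (0.24), both in the meningeal fibroblast list, and to F11r (0.25). Ackr1 was nearest to the fibroblast list genes Aebp1 (0.41) and Col1a2 (0.45) and to Mia (0.45), a gene of the ependymal list. Aebp1 had values of 11.39, 8.09, 6.83 and 1.27 FPKM in PBS 1, PBS 2, ascorbate 1 and ascorbate 2. Like Ackr1, it was lowest in ascorbate library 2.

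Cxcl16 was nearest to the border macrophage genes Cbr2 (0.20) and F13a1 (0.29) and then to Col1a1 (0.32). Cxcl12 was nearest to Vwf (0.22) of the venular endothelial list and to Rgs5 (0.30) and Emcn (0.34) of the endothelial and mural list, and Icam1 to Vwf (0.20) and Emcn (0.22). Cx3cl1 was nearest to the astrocyte glutamate transporter gene Slc1a3 (0.10), at 104.28, 144.47, 157.56 and 161.93 FPKM in the same order, then to Lct (0.26) and Cpne4 (0.29) of the hippocampal neuron list. Ackr3 was nearest to Pdgfrb (0.19), Abcb1a (0.20) and Rhbdf1 (0.21), and Cxcl14 to Cd47 (0.11), Relb (0.11) and Sall1 (0.12). Among all 13372 tested genes, the number at least as near as the third of these ran from 7 for Ackr1 to 700 for Cxcl14.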

How the data were processed

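RNA sequencing of 4 hippocampus libraries was deposited as 1 table of FPKM per library, per the file headers, with 2 decimals. The submitters' processing notes name the build GRCm38 and the tools DESeq2, RSEM, Bowtie2 and HISAT2. Versions, annotation, strand setting and filters are not given in the sources used here, so overlapping genes cannot be told apart. FPKM depends on the library total, so an abundant transcript lowers all other values. Totals ran from 348133 to 391142 FPKM. Read depth is unknown, and no counting error can be given.

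Gene IDs joined the tables. Of 22173 genes, 19388 had values. The 13372 genes averaging 1 FPKM or more were tested on log2(FPKM + 1) with limma-trend (R 4.3.3, limma 3.58.1), with group as the one factor, two-sided, and Benjamini-Hochberg adjustment over all of them at 0.05. The fit had 2 residual degrees of freedom, with 2.33 more from the prior. Transcripts of named genes were compared with GENCODE M21 by BLAST+ 2.17.0 (95% identity over at least 200 bases). Positions and promoter sequences are those of RefSeq, GRCm38.p6.

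The members, gene lists, motifs and rules were chosen with earlier results of these data known. Named genes are the 9 members, their receptors and proteases, the 4 genes of each pathway list with the smallest p, chosen T cell genes and the 3 nearest genes by profile. Genes that overlap a named gene, Cadm3, Art3, Zmynd15, Acad11, Syn3, Iah1 and Cerkl, and the low chemokines Ccl2, Ccl7, Ccl8 and Cxcl9 were named after their values were seen. A gene that the rule takes is not reported here.

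Alternatives were other filters (none, or 5 FPKM), other pseudocounts (0.1 and 0.5), scaling to TPM, by quantiles or by median of ratios, choroid plexus, meningeal and erythrocyte markers left out of the total, limma without trend and with robust variances, the library number as a block, and each library left out.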

Additional observations from a re-analysis of the deposited data

How the results depend on the processing

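The log2 differences of the 8 tested members kept their sign under each of the 15 alternatives that could give one. They ran from -1.24 to -0.71 for Vcam1, from -0.81 to -0.28 for Cxcl12, from -1.38 to -0.57 for Cxcl16, from -0.84 to -0.24 for Icam1, from -2.58 to -0.44 for Ackr1, from -0.50 to -0.13 for Ackr3, from 0.13 to 0.69 for Cx3cl1 and from 0.002 to 0.11 for Cxcl14. With a minimum of 5 FPKM, Cxcl16, Icam1 and Ackr1 were not tested. Of the 9 members, 6 lay lower without overlap, and 5 to 7 did so across the alternatives. The share of all tested genes that did so was 14.4%, and it was 11.4% after rescaling to TPM (13.3% higher), 18.4% with the markers left out of the total, 32.5% when compared within numbers, and 22.9%, 37.9%, 46.3% and 30% without PBS library 1, PBS library 2, ascorbate library 1 and ascorbate library 2. No member passed in any alternative but the block.

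Libraries of the same number deviated together (correlation 0.770 over 13372 genes), but 2 numbers per group cannot show that they pair libraries. With the number as a replicate block, which leaves 1 residual degree of freedom, 485 genes passed (3.63%), among them 4 members, Vcam1 (adjusted p = 1.19e-04), Ackr1, Cxcl12 and Cxcl16 (adjusted p from 0.0193 to 0.0302). With quantile normalization 1 gene passed, which is no member. In the other alternatives 0 passed. With a library left out, its group has 1 library, which is assumed to vary like the other group. No scaling moved the median of all genes by over 0.1.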
